A study of Mus musculus with 6 samples.

Results

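The genes described here are 38 sarcomere and contractile genes of skeletal muscle, chosen by name from the 55376 genes in the count and FPKM tables: 13 of the thick filament and its regulators, 12 of the thin filament, 7 of the Z-disc, titin and desmin, 4 of calcium handling and 2 of energy and oxygen supply (Ckm and Mb). They were followed through an RNA immunoprecipitation sequencing (RIP-seq) experiment on satellite cells (SCs), the muscle stem cells, which asked which transcripts come down with CPEB1, a protein that binds cytoplasmic polyadenylation elements (CPEs) in the 3′ UTR of mRNAs and controls their translation. All 6 libraries came from freshly isolated SCs (fiSCs) of C57BL/6 mice aged 3 months, and the labels name the precipitation step as the difference between the groups. The counts and FPKM of the IgG libraries were deposited apart from those of CPEB1 IP and input. The labels do not say whether the libraries were prepared together. An effect of separate preparation therefore cannot be told apart from the precipitation in comparisons with IgG. The CPEB1 IP group (2 libraries) was precipitated with anti-CPEB1, the IgG group (2 libraries) with anti-IgG, and the input group (2 libraries) was RNA that had not been precipitated. The labels give no genetic change or treatment in any group, and no cells without CPEB1 were among them. The study names 2 independent experiments for the precipitations, and the labels do not say whether the input libraries came from separate mice, so the p-values below measure the spread between these libraries, which may be technical in part.

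The sarcomere is the repeating unit of the myofibril: thick filaments of myosin heavy and light chains pull on thin filaments of actin, tropomyosin and troponin, which are anchored at the Z-disc by alpha-actinin and spanned by titin. Nerve impulses open the ryanodine receptor, calcium binds troponin, and the calcium pump of the sarcoplasmic reticulum then clears it. Fibres, not SCs, make these proteins in bulk, with separate fast, slow and developmental isoforms, and desmin and some tropomyosins are also made in cells of the lineage before fusion.

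Since CPEB1 binds through CPEs, the 3′ UTRs of these genes were searched for 9 CPE motifs, the canonical TTTTAT and TTTTAAT together with the forms TTTTACT and also TTTTCAT, TTTTAAAT, TTTTAACT, TTTTAAGT, TTTTAATT and TTTTAAAGT, on the strand of the mRNA. TTTTAAT is contained in TTTTAATT, so a match to the latter is also a match to the former. At least 1 motif lay in an annotated 3′ UTR of 14 of the 38 genes, or 36.8% (95% Clopper-Pearson interval 21.8% to 54.0%), against 13824 of 21037 genes with an annotated 3′ UTR, or 65.7%. The median longest 3′ UTR was 274 bases in the 38 genes and 960 bases in all genes. The shares were 23.7% and 57.8% where TTTTAT and TTTTAAT alone were counted. The following 30-base windows, 5′ to 3′ on the mRNA strand with the CPE motif in capitals, are those of 7 of the genes whose read counts differed between groups below. They are shown because CPEB1 is known to bind motifs of this kind. A match describes the letters only and is not a measured binding site.
Tpm3: aaactttttaaaTTTTATattattttgaag
Ttn: tgatgtagtccTTTTCATgccagtatatgt
Neb: aactcttcagTTTTAAAGTaaattcaaatt
Myh8: taacataattTTTTAAAGTaaaaaaaatcc
Myl1: taagccttgagTTTTCATgacaaacatgcc
Myl4: cctttaatgatTTTTAAATaaaggcaaggc
Pvalb: tttgtgttattTTTTACTcccccatcctct
On GRCm38 (mm10) these windows lie at chr3:90100588-90100617 on the plus strand (Tpm3), chr2:76704053-76704082 on the minus strand (Ttn), chr2:52136895-52136924 on the minus strand (Neb), chr11:67282076-67282105 on the plus strand (Myh8), chr1:66924401-66924430 on the minus strand (Myl1), chr11:104595703-104595732 on the plus strand (Myl4) and chr15:78191545-78191574 on the minus strand (Pvalb). The Myh8 window belongs to a short transcript that ends inside the gene, not to the full-length myosin mRNA. Within its longest 3′ UTR, Tpm3 and Myh8 had 6 such sites each, Ttn 5, Myl1 2, and Neb, Myl4 and Pvalb 1 each. Overlapping matches were counted separately, and the Tpm3 window also holds TTTTAAAT, which overlaps the motif in capitals. Des and Ldb3, also called below, had 1 and 6 sites, and their windows are not shown. None of the 9 motifs was found in an annotated 3′ UTR of Acta1, Actn3, Atp2a1, Tnni2, Mylpf, Myh2 or Mybpc2, whose counts also differed between groups. This says only that these letters are not in those annotated 3′ UTRs.

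Counts on genes lay between 1284716 and 1359052 in the IgG libraries and between 2564323 and 4941653 in the other libraries, so the IgG values rest on the fewest reads. Counts on genes made up 39.1% to 39.5% of the library total behind the deposited FPKM in IgG and 69.5% to 79.8% in the other groups. Markers of the labelled cell type were present, with a summed level of 12 SC markers between 10326 and 12760 CPM (the counts as a share of all gene counts of the library) in the 6 libraries and none of the 12 at 0. For single genes, the CPM below are TMM-normalized and given for library 1 and then library 2 of each group. Cpeb1 itself had 97.6 and 82.2 CPM in input, 90.4 and 95.4 in IgG and 197 and 216 in CPEB1 IP.

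Reads of the 38 genes were present in every library but were few for most members. As CPM of the counts on genes, the 38 genes together had 3115 and 2918 in the 2 input libraries, 2395 and 2213 in IgG and 2389 and 2484 in CPEB1 IP, so the sum was highest in input and the 2 precipitates overlapped. Scaled to the library total behind the FPKM instead, input was still highest, but IgG (947 and 865) lay below CPEB1 IP (1670 and 1727). Des, which codes for the intermediate filament protein desmin, carried about as many of these counts as the other 37 genes together, which had 1548 and 1421 in input, 1196 and 1024 in IgG and 1138 and 1225 in CPEB1 IP. Without Des, Tpm3 and Actn3 the order turned, with 483 and 458 in input, 702 and 619.5 in IgG and 511 and 600.2 in CPEB1 IP. Scaled to the FPKM total, this sum was 343 and 366 in input, 278 and 242 in IgG and 357 and 417 in CPEB1 IP, with IgG lowest, so the order depended on the scaling. The split was made after the values were seen and was given no test. In such bulk libraries, fewer cells of a type and less RNA per cell cannot be told apart.

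On the FPKM scale, which allows levels of different genes to be compared, the mean over the 6 libraries was highest for Des (222 FPKM), followed at a distance by Tpm3 (51.4), Actn3 (50.3) and Acta1 (23.1). Mybpc1, Tnnt1, Tpm1 and Atp2a1 followed between 8.57 and 8.78 FPKM, then Mylpf (6.96), Tpm2 (6.62), Pvalb (6.05) and Tnnt3 (4.86). The order was not the same in input alone, where Actn3 (114 and 109 FPKM) lay above Tpm3 (70.3 and 74.5) and Atp2a1 (16.9 and 15.8) overlapped Acta1 (16.4 and 15.1). The adult fast myosin heavy chains of the limb muscles were far lower, and Myh4 did not exceed 0.75 FPKM in any library. The median member had between 1.06 and 1.95 FPKM, depending on the library. Between 10 and 15 of the 38 genes had under 10 reads in a library.

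**Figure D1:**
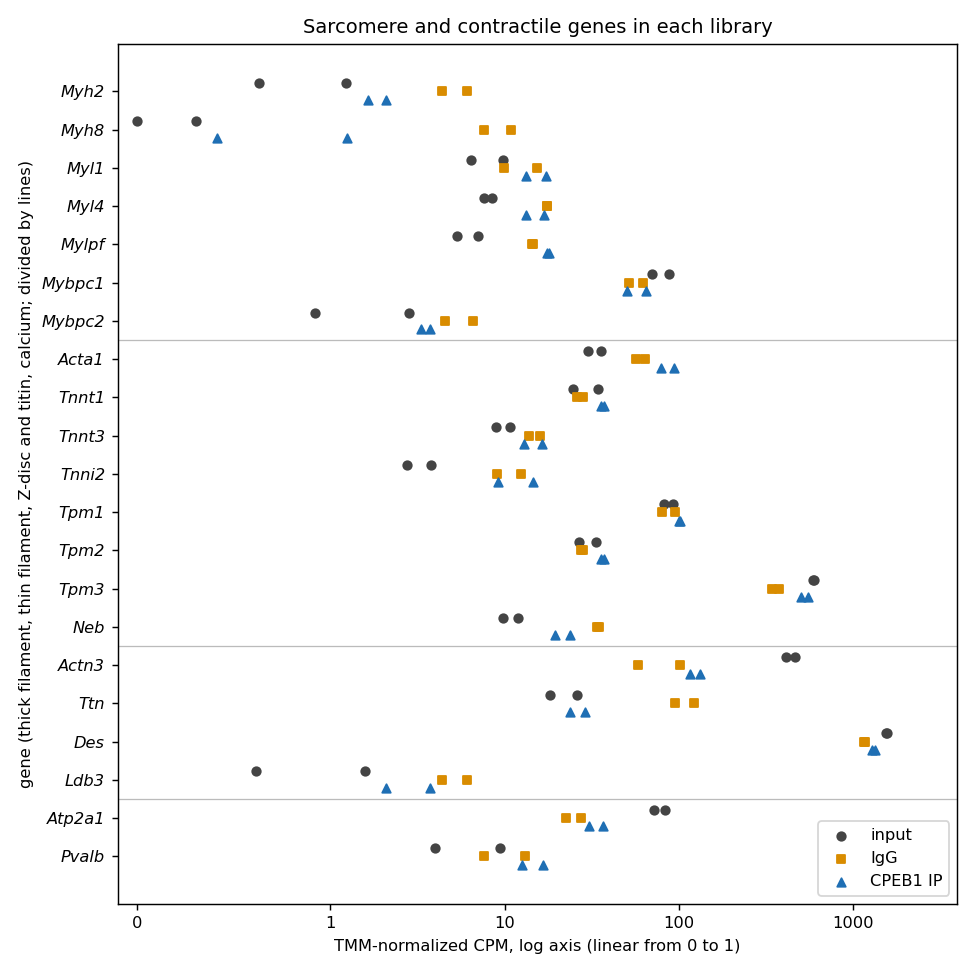
TMM-normalized CPM (horizontal log axis, linear from 0 to 1) of the 21 genes that were called in at least 1 comparison or were among the 12 with the highest mean FPKM, with 1 point for each library. Grey circles are input, orange squares IgG and blue triangles CPEB1 IP; Actn3 and Atp2a1 lie highest in input, while Acta1, Mylpf and Tnni2 lie lowest there.

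Of the 38 genes, 25 had enough reads to be tested between CPEB1 IP and IgG, 25 between CPEB1 IP and input, and 28 between IgG and input, and 9 (Actn2, Myh3, Myh7, Myl2, Myl3, Tnni1, Tnnc1, Tnnc2 and Mb) were tested in no comparison. A call below means that the quasi-likelihood test of edgeR gave a p under 0.05 after the Benjamini-Hochberg adjustment over all genes tested, and an error beside a log2 fold change is its SE. Against IgG, CPEB1 IP was higher for 3 genes and lower for 3, or 6 of 25, where 33.4% of all 12124 tested genes were called (14.7% higher, 18.7% lower). Against input, CPEB1 IP was higher for 7 and lower for 2, or 9 of 25, where 32.8% of all 12171 tested genes were called (17% higher, 15.8% lower). IgG was higher than input for 10 genes and lower for 4, or 14 of 28, where 40.7% of all 12980 tested genes were called (21.4% higher, 19.4% lower). The share of tested members called in either direction was thus 24%, 36% and 50%, within 10 percentage points of the share in all genes each time, and the share called higher was 12%, 28% and 35.7%. The filter keeps a gene with enough reads in either group. Members with few input reads (Myh8, Myh2, Ldb3, Mybpc2 and Tnni2) could thus be tested through their IgG reads and could hardly be called lower in IgG. The counts higher and lower depend on this. With no filter, 4 members were higher and 5 lower of 38 in IgG against input, beside 4109 and 3066 of all 40052 genes. With DESeq2, 3 members were higher and 2 lower of 35 against IgG, 3 and 2 of 20 in CPEB1 IP against input, and 3 and 4 of 37 in IgG against input. All genes then had 2619 higher and 984 lower of 19222, 1222 and 1181 of 10505, and 1004 and 1530 of 21568. Without CPEB1 IP replicate 2, 2 members were called against IgG, and in IgG against input 7 were called without either IgG replicate and 9 without input replicate 2. The median log2 fold change of the tested members was 0.13 (CPEB1 IP against IgG), 0.46 (CPEB1 IP against input) and 0.63 (IgG against input), beside -0.01, -0.00 and 0.03 for all genes tested. The CPM of the 2 groups did not overlap for 17 of 25, 20 of 25 and 23 of 28 members in these comparisons, against 66.7%, 67.3% and 70.8% of all genes tested. The 3 comparisons share libraries and are not independent. With the FPKM library totals in place of TMM, the median of all tested genes moved to 0.84, -0.20 and -0.93. The members called became 15 higher and 2 lower of 24, 4 higher and 4 lower of 25, and 2 higher and 8 lower of 25. Beside these, all genes had 7212 higher and 521 lower of 11503, 1222 and 2753 of 12046, and 551 and 7172 of 12008. Directions below are therefore relative to the other genes of a library. Of the 14 calls between IgG and input, those of Acta1, Mylpf, Myl4, Tnni2, Myh2, Mybpc2 and Ldb3 were lost both with DESeq2 (adjusted p of 0.185 to 0.513) and with no filter (0.0646 to 0.224). Those of Acta1, Mylpf, Myl4, Tnni2 and Neb were lost with the FPKM totals (0.0547 to 0.987). Between CPEB1 IP and input, the calls of Myl1, Myl4, Pvalb and Neb were lost with DESeq2 (0.0991 to 0.205). Those of Myl1, Myl4 and Pvalb were lost with the FPKM totals (0.0691 to 0.0807) and that of Myl4 with no filter (0.0526). Between CPEB1 IP and IgG, those of Actn3 and Neb were lost with DESeq2 (0.130 and 0.312). That of Neb was also lost with no filter (0.460) and in 1 fit of all libraries (0.0604). The losses named below with single genes are those on leaving out a library, unless another setting is given. Of the genes called, Myh2, Mybpc2, Myl4, Neb, Ttn, Des and Atp2a1 share exon bases with a gene on the opposite strand, so part of their reads cannot be assigned with certainty.

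**Figure D2:**
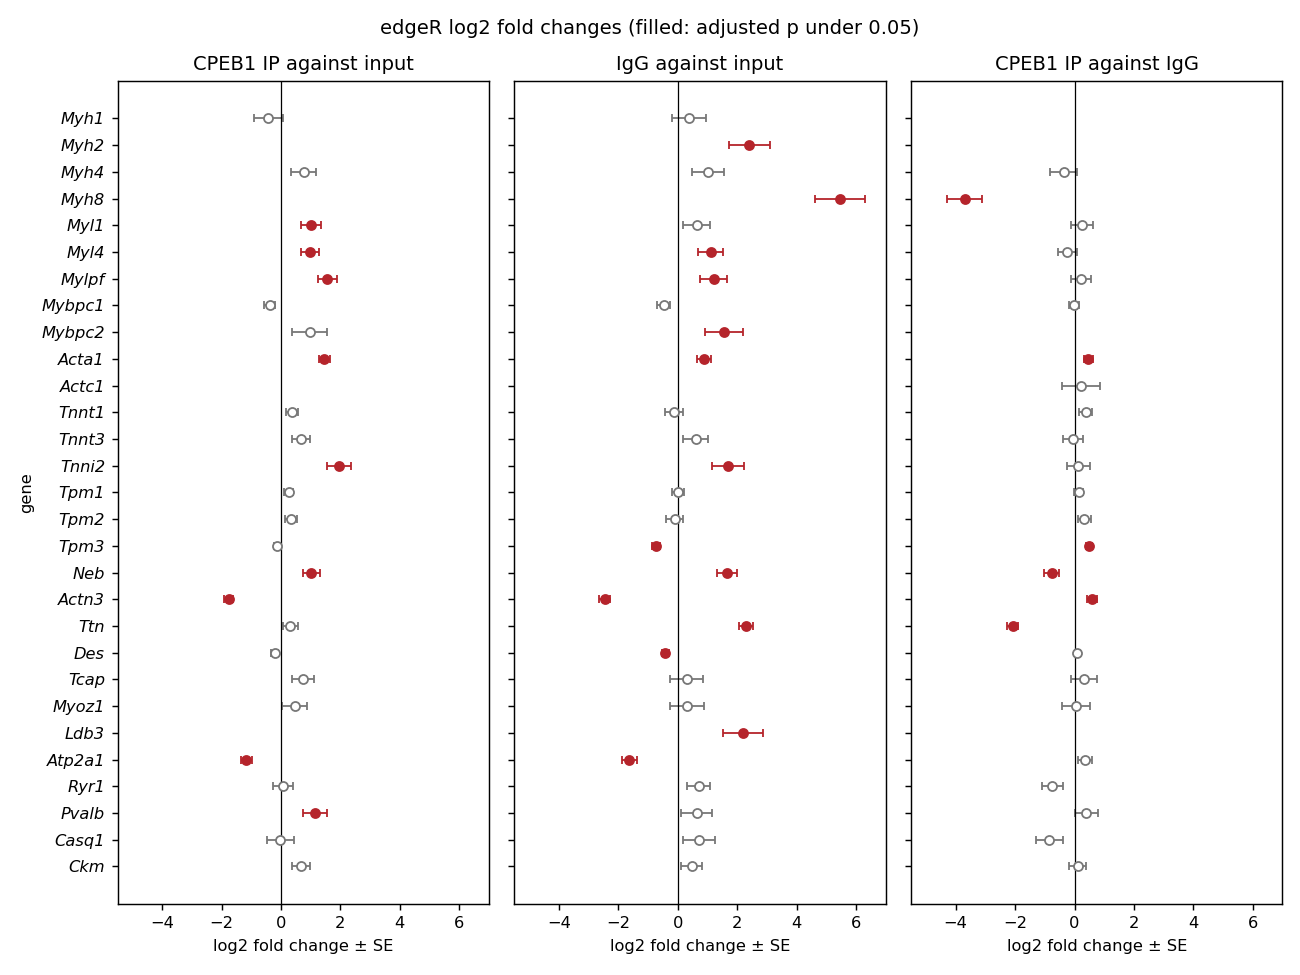
Log2 fold changes ± SE from edgeR (horizontal axes) for each gene with enough reads, in CPEB1 IP against input, IgG against input and CPEB1 IP against IgG (left to right). Filled red points had an adjusted p under 0.05 and open grey points did not; in both precipitates against input, Tnni2, Mylpf, Myl4, Neb and Acta1 are filled to the right and Actn3 and Atp2a1 to the left.

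Among the thick filament genes, the light chains Mylpf and Myl4 rose in both precipitates against input, and Myl1 in CPEB1 IP. Mylpf, the fast regulatory light chain (ENSMUSG00000030672.12, chr7:127208890-127214298), had 7.06 and 5.35 CPM in input, 14.4 and 14.6 in IgG and 17.9 and 17.5 in CPEB1 IP. All 4 precipitate libraries lay above both input libraries. CPEB1 IP was 2.94-fold higher than input (log2 fold change 1.56 ± 0.32, adjusted p = 0.00287) and IgG 2.32-fold higher (log2 fold change 1.21 ± 0.46, adjusted p = 0.0312), while CPEB1 IP against IgG was not called (log2 fold change 0.22 ± 0.33, adjusted p = 0.647). Myl4, the embryonic and atrial essential light chain (ENSMUSG00000061086.12, chr11:104550663-104595753), had 7.67 and 8.50 CPM in input, 17.5 and 17.5 in IgG and 13.3 and 16.9 in CPEB1 IP. It was higher in CPEB1 IP (log2 fold change 0.98 ± 0.32, adjusted p = 0.0310) and in IgG (log2 fold change 1.11 ± 0.42, adjusted p = 0.0318) than in input. Myl1, the fast essential light chain (ENSMUSG00000061816.15, chr1:66924295-66945404), had 6.45 and 9.76 CPM in input, 9.87 and 15.3 in IgG and 13.3 and 17.3 in CPEB1 IP. CPEB1 IP did not overlap input and was 1.997-fold higher (log2 fold change 0.998 ± 0.33, adjusted p = 0.0346), and IgG against input was not called (log2 fold change 0.64 ± 0.46, adjusted p = 0.271). Some of these calls were lost where a library was left out. Without CPEB1 IP replicate 2 the call against input was lost for Myl1 and for Myl4 (adjusted p = 0.342 for both, over ranges of 0.00343 to 0.342 and 0.0187 to 0.342), and without input replicate 1 for Myl1 (adjusted p = 0.109) and Myl4 (0.0511). The IgG call of Myl4 was lost without any 1 of the 4 libraries (log2 fold changes of 1.06 to 1.16, adjusted p of 0.0661 to 0.129, over a range of 0.0174 to 0.641). That of Mylpf was lost without IgG replicate 1 (0.116), IgG replicate 2 (0.133) or input replicate 2 (0.152), over a range of 0.0148 to 0.508.

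The myosin heavy chains differed from the light chains, with few reads in any library. Myh8, the perinatal heavy chain (ENSMUSG00000055775.16, chr11:67277124-67308634), had 1 and 0 reads in input, 10 and 15 in IgG and 3 and 2 in CPEB1 IP. Its reads lay mostly in the IgG libraries, and neither other group overlapped them. The IgG level was 62.3 times that of input (95% interval 10.2 to 2556, counting error only; adjusted p = 1.60e-06) and 14.2 times that of CPEB1 IP (5.34 to 47.5; fitted log2 value -3.70, adjusted p = 8.51e-05). Without CPEB1 IP replicate 2 the adjusted p of the latter was 0.0995, the highest of a range from 9.80e-07. Myh2, the heavy chain of fast oxidative fibres (ENSMUSG00000033196.17, chr11:67171027-67197517), had 4 and 2 reads in input, 8 and 6 in IgG and 5 and 8 in CPEB1 IP, and IgG was higher than input (log2 fold change 2.41 ± 0.68, adjusted p = 0.00396), though not with DESeq2 (adjusted p = 0.289) or with no filter (0.0646). Myh4 and Myh1, the heavy chains of the fastest fibres, had 6 to 32 reads in each library and no call, with log2 fold changes between -0.43 (Myh1, CPEB1 IP against input) and 1.01 (Myh4, IgG against input). Myh3, the embryonic chain, had 1 to 16 reads, and Myh7, the slow chain, 0 to 7, and neither could be tested. The light chains of slow fibres and heart, Myl2 with 0 to 5 reads and Myl3 with 2 to 5, were not tested either. The heavy chain genes other than Myh7 lie side by side on chromosome 11. Myh1 and Myh2 share exon bases with an antisense gene, and the strand setting of the counting was not given in the sources used here.

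Of the myosin binding proteins, the slow form Mybpc1 (ENSMUSG00000020061.17, chr10:88518279-88605152) had 87.8 and 69.9 CPM in input, 62.3 and 51.7 in IgG and 50.4 and 65.03 in CPEB1 IP. It lay lower in both precipitates than in input without a call (log2 fold change -0.38, adjusted p = 0.129 for CPEB1 IP and -0.47, 0.0762 for IgG). The fast form Mybpc2 (ENSMUSG00000038670.11, chr7:44501699-44524656) had 3 and 9 reads in input, 6 and 9 in IgG and 8 and 18 in CPEB1 IP. IgG was higher than input for Mybpc2 (log2 fold change 1.55 ± 0.63, adjusted p = 0.0461), and the call was lost without IgG replicate 1 (adjusted p = 0.180), without IgG replicate 2 (0.390) and with the replicate number as a block (0.0858), over a range of 0.0406 to 0.513. For Mybpc1, leaving out input replicate 2 gave calls for both precipitates (adjusted p = 0.00356 over a range to 0.634 for CPEB1 IP, and 0.0220 over a range of 1.42e-05 to 0.415 for IgG).

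In the thin filament, skeletal actin was one of 3 genes called in all 3 comparisons, with Actn3 and Neb. Acta1, the actin of the adult skeletal thin filament (ENSMUSG00000031972.5, chr8:123891769-123894751), had 35.6 and 30.2 CPM in input, 64.6 and 56.8 in IgG and 78.7 and 94.3 in CPEB1 IP. The 3 groups did not overlap, with input lowest and CPEB1 IP highest. CPEB1 IP was 2.74-fold above input (log2 fold change 1.45 ± 0.18, adjusted p = 8.06e-05) and 1.38-fold above IgG (log2 fold change 0.46 ± 0.16, adjusted p = 0.0294), and IgG was 1.84-fold above input (log2 fold change 0.88 ± 0.24, adjusted p = 0.00341). The call over IgG was lost where CPEB1 IP replicate 2 (adjusted p = 0.384) or IgG replicate 2 (0.108) was left out, over a range of 6.60e-07 to 0.384, and the call of IgG over input without IgG replicate 1 (adjusted p = 0.0679, over a range of 0.00121 to 0.987). With the FPKM totals the log2 fold change of Acta1 between IgG and input was 0.0056. Actc1, the cardiac actin that is also made in developing muscle, had 2 to 27 reads and was tested only between the precipitates (log2 fold change 0.21, adjusted p = 0.833).

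Tropomyosin 3 had the lowest adjusted p of the 3 members that were higher in CPEB1 IP than in IgG. Tpm3, which codes for slow skeletal and also for non-muscle tropomyosins (ENSMUSG00000027940.18, chr3:90072649-90100902), had 604 and 593 CPM in input, 379.8 and 342 in IgG and 553 and 504 in CPEB1 IP. IgG lay below both other groups, and CPEB1 IP lay between IgG and input. CPEB1 IP was 1.40-fold above IgG (log2 fold change 0.48 ± 0.10, adjusted p = 7.68e-04), IgG was 1.66-fold below input (log2 fold change -0.73 ± 0.14, adjusted p = 6.04e-05), and CPEB1 IP against input was not called (log2 fold change -0.13 ± 0.12, adjusted p = 0.451). The call over IgG was kept under all 11 alternatives, with adjusted p up to 0.0144. Copies of the gene named Tpm3-rs2 and Tpm3-rs7 are annotated elsewhere in the genome, and how reads were shared between them is not known. Tpm1, the fast and cardiac tropomyosin, had 82.6 and 93.2 CPM in input, 95.7 and 80.1 in IgG and 101 and 101 in CPEB1 IP. Tpm2, the beta-tropomyosin of slow and fast fibres, had 26.7 and 33.4 CPM in input, 28.1 and 27.7 in IgG and 35.8 and 37.2 in CPEB1 IP. For both, IgG overlapped input, and CPEB1 IP lay above the other groups by small amounts without a call, with log2 fold changes between 0.14 (Tpm1 against IgG) and 0.34 (Tpm2 against input).

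Of the 3 troponin genes tested, fast troponin I was the one called. Tnni2, the fast troponin I that inhibits actomyosin at low calcium (ENSMUSG00000031097.15, chr7:142441808-142444410), had 2.76 and 3.78 CPM in input, 9.11 and 12.4 in IgG and 9.17 and 14.7 in CPEB1 IP. The precipitates overlapped each other and lay above input. CPEB1 IP was 3.87-fold higher than input (log2 fold change 1.95 ± 0.42, adjusted p = 0.00349) and IgG 3.26-fold higher (log2 fold change 1.70 ± 0.54, adjusted p = 0.0103). Without CPEB1 IP replicate 2 the first call was lost (adjusted p = 0.122, over a range of 1.32e-04 to 0.122), and the second was lost without IgG replicate 2 (0.163), input replicate 1 (0.108) or input replicate 2 (0.0726), over a range of 0.00802 to 0.276. Tnnt3, the fast troponin T that ties troponin to tropomyosin, had 8.90 and 10.7 CPM in input, 15.9 and 13.8 in IgG and 12.9 and 16.5 in CPEB1 IP, with no call (log2 fold change 0.66, adjusted p = 0.119 for CPEB1 IP against input). Tnnt1, the slow troponin T, had 24.9 and 34.3 CPM in input, 28.1 and 26.2 in IgG and 35.8 and 37.4 in CPEB1 IP and no call. Under the alternatives Tnnt1 was called in CPEB1 IP against input without input replicate 2 (adjusted p = 0.0316, over a range to 0.672), against IgG with the FPKM totals (log2 fold change 1.18, adjusted p = 1.25e-04) and with no filter (0.77, 0.0426). It was lower in IgG than in input with the FPKM totals (-1.01, 0.00663). The slow troponins Tnni1 and Tnnc1 and the fast troponin C, Tnnc2, had 0 to 9 reads in each library and could not be tested.

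Neb, which codes for nebulin, the giant protein that runs along the thin filament (ENSMUSG00000026950.17, chr2:52136647-52378474), had 9.82 and 11.96 CPM in input, 34.2 and 34.96 in IgG and 23.7 and 19.4 in CPEB1 IP. Input was lowest and IgG highest, with CPEB1 IP between them and no overlap. CPEB1 IP was higher than input (log2 fold change 1.02 ± 0.28, adjusted p = 0.0144) and lower than IgG (log2 fold change -0.77 ± 0.25, adjusted p = 0.0219), and IgG was 3.16-fold higher than input (log2 fold change 1.66 ± 0.34, adjusted p = 1.51e-04). The call against IgG was lost without any 1 of the 4 libraries (adjusted p of 0.0536 to 0.246, over a range of 0.0194 to 0.900), and that against input without CPEB1 IP replicate 1 (0.103, over a range of 0.00266 to 0.103). The call of IgG over input was kept with each library left out and lost with the FPKM totals (log2 fold change 0.78, adjusted p = 0.0547). With the FPKM totals the log2 fold change against IgG was 0.04, so the direction of Neb between the precipitates turned with the scaling.

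At the Z-disc, alpha-actinin 3 was lower than input in both precipitates. Actn3, the alpha-actinin of fast fibres, which crosslinks thin filaments (ENSMUSG00000006457.4, chr19:4861216-4877909), had 466 and 412 CPM in input, 103 and 58.3 in IgG and 116 and 133 in CPEB1 IP. Both input libraries were several times above all 4 precipitate libraries. CPEB1 IP was 3.39-fold below input (log2 fold change -1.76 ± 0.14, adjusted p = 3.75e-06) and IgG 5.48-fold below it (log2 fold change -2.46 ± 0.19, adjusted p = 2.14e-13), and both calls were kept under all 11 alternatives. CPEB1 IP was 1.49-fold above IgG (log2 fold change 0.58 ± 0.17, adjusted p = 0.0141), a call lost where CPEB1 IP replicate 2 (adjusted p = 0.0986) or IgG replicate 2 (0.220) was left out and with DESeq2 (0.130), over a range of 5.18e-07 to 0.220. Actn2, the alpha-actinin of all fibres and of heart, had 4 to 9 reads and was not tested.

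Titin rose in IgG alone among the precipitates. Ttn, the spring that spans from Z-disc to the middle of the sarcomere (ENSMUSG00000051747.14, chr2:76703980-76982547), had 26.1 and 18.3 CPM in input, 122 and 95.4 in IgG and 23.7 and 28.9 in CPEB1 IP. CPEB1 IP overlapped input, and both IgG libraries lay well above the rest. IgG was 4.88-fold above input (log2 fold change 2.29 ± 0.24, adjusted p = 4.82e-10), CPEB1 IP was 4.23-fold below IgG (log2 fold change -2.08 ± 0.18, adjusted p = 5.82e-08), and CPEB1 IP against input was not called (log2 fold change 0.31 ± 0.25, adjusted p = 0.363). Neither call was lost under any of the 11 alternatives. Des, the intermediate filament around the Z-discs (ENSMUSG00000026208.9, chr1:75360329-75368579), had 1573 and 1562 CPM in input, 1170 and 1177 in IgG and 1337 and 1285 in CPEB1 IP. IgG was 1.34-fold below input (log2 fold change -0.42 ± 0.13, adjusted p = 0.00688), a call lost without IgG replicate 1 (adjusted p = 0.199) or replicate 2 (0.201), over a range of 4.22e-08 to 0.201, and CPEB1 IP differed from neither group by a call (adjusted p = 0.457 against IgG and 0.208 against input), although it was called higher than IgG with DESeq2 (log2 fold change 0.38, adjusted p = 1.33e-04), with no filter (0.49, 3.52e-05) and with the FPKM totals (0.90, 7.61e-10), over a range up to 0.594. Ldb3, a PDZ and LIM domain protein that binds alpha-actinin (ENSMUSG00000021798.14, chr14:34526603-34588682), had 2 and 5 reads in input, 8 and 6 in IgG and 5 and 18 in CPEB1 IP, and IgG was higher than input (log2 fold change 2.20 ± 0.67, adjusted p = 0.00745), though not without IgG replicate 2 (adjusted p = 0.0665, over a range of 0.00620 to 0.344). Tcap, which caps titin, and Myoz1, which binds calcineurin at the Z-disc of fast fibres, had no call, with log2 fold changes between 0.04 (Myoz1, CPEB1 IP against IgG) and 0.74 (Tcap, CPEB1 IP against input).

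Of the calcium handling genes, the calcium pump of fast fibres fell in both precipitates. Atp2a1 (ENSMUSG00000030730.12, chr7:126445858-126463108) had 83.2 and 71.8 CPM in input, 27.3 and 22.6 in IgG and 36.7 and 30.8 in CPEB1 IP. Both input libraries lay above the precipitates by a wide margin. CPEB1 IP was 2.25-fold below input (log2 fold change -1.17 ± 0.18, adjusted p = 3.97e-04) and IgG 3.11-fold below it (log2 fold change -1.64 ± 0.25, adjusted p = 1.54e-06), and both calls were kept under all 11 alternatives. Atp2a1 shares 763 exon bases with Rabep2 on the opposite strand. Rabep2, which is no sarcomere gene, had 34.1 and 21.7 CPM in input, 18.2 and 16.8 in IgG and 11.2 and 14.04 in CPEB1 IP, and it was lower in CPEB1 IP than in input as well (log2 fold change -1.06, adjusted p = 0.0133). Reads on the shared bases could not be assigned to 1 of the genes here, and their part in the difference was not tested. Pvalb, the calcium buffer parvalbumin of fast fibres (ENSMUSG00000005716.16, chr15:78191114-78206400), had 3.99 and 9.45 CPM in input, 7.60 and 13.1 in IgG and 16.7 and 12.6 in CPEB1 IP. CPEB1 IP was above input (log2 fold change 1.15 ± 0.40, adjusted p = 0.0399), a call lost without CPEB1 IP replicate 1 (adjusted p = 0.155) or input replicate 1 (0.189), over a range of 2.68e-04 to 0.189. Ryr1, the calcium release channel, and Casq1, the calcium store protein calsequestrin, had no call, with log2 fold changes between -0.85 (Casq1, CPEB1 IP against IgG) and 0.71 (Casq1, IgG against input). Ckm, the creatine kinase that recharges ATP at the filaments, had 20.6 and 12.6 CPM in input, 22.8 and 23.3 in IgG and 19.2 and 30.8 in CPEB1 IP and no call. Mb, the oxygen store myoglobin, had 4 to 15 reads and was not tested.

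The isoforms of fast fibres did not move as a block. Of the 14 fast-fibre isoforms, 12 were tested between CPEB1 IP and input, where 4 were higher and 2 lower, 13 between IgG and input, where 4 were higher and 2 lower, and 10 between CPEB1 IP and IgG, where Actn3 was called higher, beside 17% higher and 15.8% lower, 21.4% and 19.4%, and 14.7% and 18.7% of all genes tested. Their summed level was 597 and 523 CPM in input, 234 and 189.8 in IgG and 233 and 264 in CPEB1 IP. That fall rested on Actn3 and Atp2a1. Without these, a split made after their values were seen, the sum of the other 12 was 49.5 and 58.8 in input, 101 and 108 in IgG and 90.5 and 104 in CPEB1 IP, with input lowest. Scaled to the FPKM total, the sum of these 12 overlapped between input (35.2 and 47.0) and IgG (40.0 and 42.3). The 7 slow-fibre isoforms had 119 and 103 in input, 113 and 89.03 in IgG and 83.5 and 105 in CPEB1 IP, with overlap between the groups, and only Tnnt1 and Mybpc1 among them had enough reads to be tested. The 4 developmental isoforms (Myh3, Myh8, Myl4 and Actc1) had 11.01 and 11.5 in input, 39.7 and 37.5 in IgG and 16.8 and 23.5 in CPEB1 IP, highest in IgG, although CPEB1 IP (11.7 and 16.3) and IgG (15.7 and 14.7) overlapped when scaled to the FPKM total. In IgG, the reads of Myh8 lay near the level of the olfactory receptor genes given below, and those of Myl4 lay above it. The part of that level in this sum was not tested.

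A transcript was counted as CPEB1-associated where its FPKM plus 1 in CPEB1 IP was more than 2 times that in IgG in each of 2 experiments and CPEB1 IP was higher by the count test. Of the 38 genes only Tpm3 met both, and 1464 of the 12124 tested genes did, or 12.1%. The FPKM of Tpm3 was 59.5 in CPEB1 IP and 25.3 in IgG in experiment 1, a ratio of 2.30, and 56.4 and 22.2 in experiment 2, a ratio of 2.47. Acta1 had ratios of 1.92 and 2.75 and Actn3 of 1.77 and 3.61, each past 2 in experiment 2 only, and both entered the set without CPEB1 IP replicate 1 or without IgG replicate 1, when experiment 2 alone was used. Pvalb had 2.90 and 1.55. Des, with the highest level, had 1.84 and 1.88. The ratio uses the deposited FPKM, whose library totals place the median of all tested genes at a log2 fold change of 0.84 over IgG by edgeR, and with FPKM from TMM library sizes none of the 38 genes and 76 genes in all met both criteria.

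The IgG libraries held reads on genes that SCs should not express, measured the same way. The 1405 olfactory receptor genes, a list chosen after values were seen, had a pooled level of 0.256 and 0.261 FPKM in IgG, 0.0808 and 0.0753 in CPEB1 IP and 0.00940 and 0.0104 in input. In the IgG libraries 8 and 15 of the 38 genes lay at or under 2 times this level, in CPEB1 IP 5 and 4, and in input 2 and 2. Spread evenly over the exons of Ttn, which are 116825 bases long, the olfactory level would give 97.01 and 106 reads in the IgG libraries, where 161 and 131 were counted. In CPEB1 IP it would give 34.6 and 62.5 reads of Ttn, where 57 and 140 were counted. In input it would give 5.05 and 5.02, where 85 and 58 were counted. For Neb it would give 22.1 and 24.2 reads in the IgG libraries, where 45 and 48 were counted. For Myh8 it would give 9.78 and 10.7 reads in the IgG libraries, where 10 and 15 were counted. These long genes thus lay within about 2 times of that level in IgG. Expected reads for Myh2 were 5.93 and 6.48 in the IgG libraries, where 8 and 6 were counted. Those for Ldb3 were 5.07 and 5.54, where 8 and 6 were counted. Mybpc2 would have 3.00 and 3.28 reads there, where 6 and 9 were counted. Myh3 would have 5.03 and 5.5, where 16 and 5 were counted, and Myl4 3.85 and 4.21, where 23 and 24 were counted. For Actn3 it would give 2.41 and 2.63 reads in the IgG libraries, where 135 and 80 were counted, and for Acta1 1.28 and 1.40 reads in the IgG libraries, where 85 and 78 were counted, so the short and abundant transcripts lay far above it. The part of this level in the differences between IgG and the other groups was not tested.

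**Figure D3:**
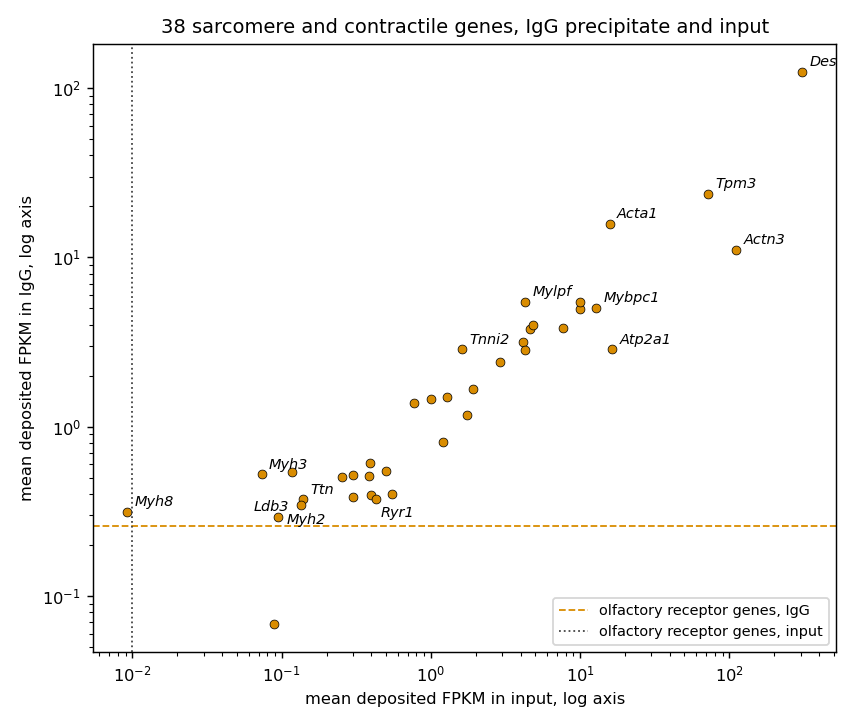
Mean deposited FPKM of each of the 38 genes in the 2 input libraries (horizontal log axis) and in the 2 IgG libraries (vertical log axis). The dashed and dotted lines mark the pooled level of olfactory receptor genes in IgG and in input; Myh8, Myh2, Ldb3 and Ttn lie just above the dashed line, while Des, Tpm3, Actn3 and Acta1 lie far above it.

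Genes around the sarcomere that are not among the 38 moved in both directions. Of 89 other muscle fibre genes, 7 were higher and 14 lower of 44 tested in CPEB1 IP against IgG, 6 and 15 of 45 in CPEB1 IP against input, and 15 and 13 of 50 in IgG against input, with median log2 fold changes of -0.22, -0.10 and 0.02. The shares over all genes tested were 14.7% higher and 18.7% lower, 17% and 15.8%, and 21.4% and 19.4%, in the same order. Cacna1s, the voltage sensor of the fibre, had 0 and 0 reads in input, 11 and 8 in IgG and 3 and 0 in CPEB1 IP. With a floor of 3 reads over the input group, the ratio of IgG to input was 15.8, which leaves out the counting error of the IgG reads. Smyd1, a methyltransferase that assists myosin assembly, had 2 and 1 reads in input, 9 and 8 in IgG and 1 and 1 in CPEB1 IP, Myoz3 of the Z-disc had 17 and 5 reads in input, 15 and 9 in IgG and 1 and 1 in CPEB1 IP, and the cardiac and embryonic troponin T gene Tnnt2 had 0 and 2 reads in input, 13 and 9 in IgG and 4 and 6 in CPEB1 IP, all highest in IgG as CPM. In IgG the FPKM was 0.517 and 0.351 for Cacna1s, 0.609 and 0.506 for Smyd1, 1.34 and 0.753 for Myoz3 and 0.516 and 0.334 for Tnnt2. The olfactory level there was 0.256 and 0.261. In the other direction, Lmod2, which nucleates actin filaments, had 16.6 and 18.6 CPM in input, 1.52 and 2.19 in IgG and 2.50 and 3.10 in CPEB1 IP and was 5.83-fold lower in CPEB1 IP than in input (log2 fold change -2.54 ± 0.37, adjusted p = 2.68e-04). Srl and Stac3, which take part in calcium handling, were lower in CPEB1 IP than in input as well (log2 fold changes of -2.02 and -1.67, adjusted p = 0.00212 and 0.00514).

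Markers of other cells moved with the precipitates too, although the cells had been sorted as Vcam1+ and negative for the endothelial, blood cell and fibroblast surface markers CD31, CD45 and Sca1. All 3 tested of 5 red cell markers were higher than input in CPEB1 IP and in IgG, and their summed level was 6.42 and 9.96 CPM in input, 80.2 and 83.9 in IgG and 73.7 and 93.5 in CPEB1 IP. Of 6 endothelial markers, 5 were higher in CPEB1 IP and 4 in IgG than in input, with sums of 124 and 114 in input, 253 and 260.5 in IgG and 311 and 348 in CPEB1 IP. Of 6 fibroblast markers, 4 of the 5 tested were higher in CPEB1 IP and 4 of 6 in IgG, with sums of 440.4 and 349.7, 574 and 544 and 644 and 686. Scaled to the FPKM total, the fibroblast sum of IgG (227 and 213) lay below that of input (313 and 279). Of 6 smooth muscle and pericyte markers, 4 were lower in each, with sums of 752 and 854, 312 and 303 and 386 and 404. The haematopoietic list was low in all groups, with 1 of 3 tested genes higher in CPEB1 IP and 3 of 4 in IgG than in input, with sums of 37.9 and 21.7, 80.95 and 78.00 and 55.4 and 67.4. Its defining gene Ptprc had 0 and 1 reads in input, 28 and 13 in IgG and 0 and 9 in CPEB1 IP. In IgG this was 0.471 and 0.204 FPKM, where the olfactory level was 0.256 and 0.261. The sums of Schwann cell and nerve markers were 483 and 408, 424 and 400.3 and 456 and 490.1, with 4 of the 5 tested higher in CPEB1 IP than in input and, for IgG, 3 of 6 higher and 1 lower. Among all genes tested, 17% were higher and 15.8% lower than input in CPEB1 IP, and 21.4% and 19.4% in IgG. The part of such cells in the levels of Acta1, Mylpf and the other fibre transcripts was not tested.

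**Figure D4:**
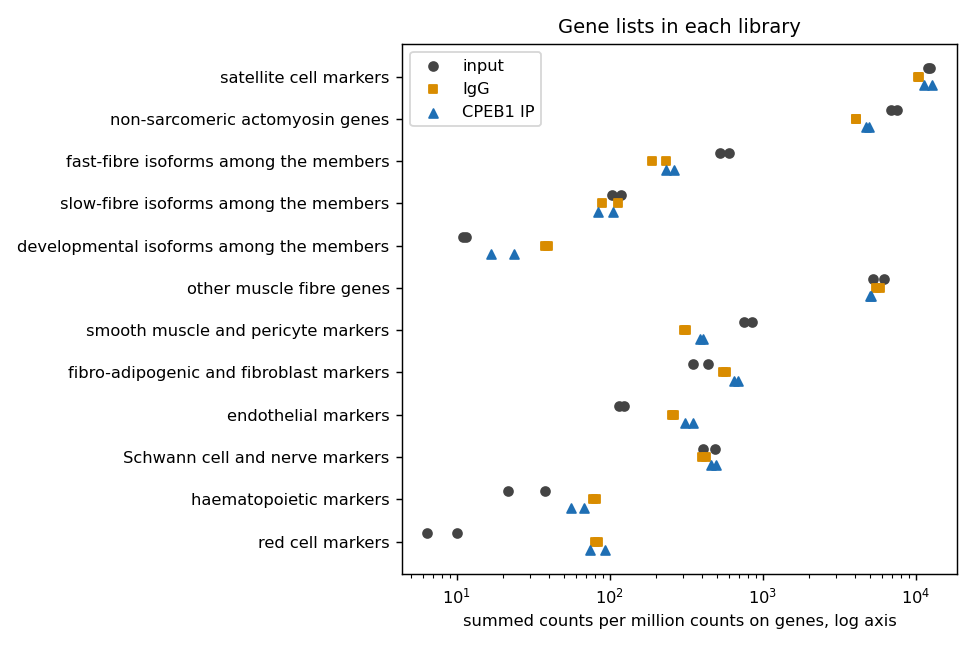
Summed CPM of the counts on genes (horizontal log axis) of each gene list, with 1 point for each library; grey circles are input, orange squares IgG and blue triangles CPEB1 IP. On this scale the fast-fibre list lies highest in input, the developmental list highest in IgG, and the red cell and endothelial lists lowest in input.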

How the data were processed

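RIP-seq libraries of fiSCs (2 each of CPEB1 IP, IgG and input) were made by the authors with the SMART-Seq2 method and paired reads. The authors mapped reads to mm10 with HISAT 2.1.0, sorted them with Samtools 1.9 and counted them on genes with featureCounts 1.5.1. They deposited raw counts for each gene, without normalization, and FPKM, which divides each count by exon length and by a library total larger than the sum of its gene counts. The strand setting was not given in the sources used here. Groups came from the sample labels, and every column was used.

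Counts were compared 2 groups at a time in R 4.3.3 with edgeR 4.0.16 (filterByExpr, TMM, quasi-likelihood test, Benjamini-Hochberg adjustment over all genes tested, threshold 0.05). The SE is the log2 fold change divided by the square root of F. CPM in the text used TMM over all 6 libraries. The procedure was tested on simulated data. Low-count ratios have exact 95% intervals from summed reads scaled to the counts on genes. Gene models and 3′ UTRs were those of GENCODE M21 on mm10, with starts and ends equal to the tables' for all 38 genes, and 17 of the 38 share exon bases with another gene on the opposite strand. CPE motifs were read from the study's supplementary table, of which only the first rows were held. Alternatives were DESeq2 1.42.0, RLE size factors, other library sizes, no filter, a replicate block, all 6 libraries in 1 fit, and leaving out each library. A count limited to members with no shared exon bases was added after seeing the data. The remaining steps used Python 3.11.15 (scipy 1.17.1, pandas 2.3.3, numpy 2.4.6, matplotlib 3.10.9).

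The members and gene lists were chosen with earlier results of these data known. Genes named with values had a call in at least 1 comparison or were among the 12 of highest mean FPKM. Of the other muscle fibre genes, the 4 with the largest log2 fold change among those called in each comparison were named. One of them is not reported here. With 2 libraries in each group, the precision comes from pooling the spread over genes. Intervals cover counting error only.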

Additional observations from a re-analysis of the deposited data

How the results depend on the processing

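No shared deviation of libraries with the same replicate number was seen: deviations from the group means correlated at -0.0100 (CPEB1 IP and IgG), -0.0147 (CPEB1 IP and input) and 0.0322 (IgG and input) across 14276 genes. The labels do not say that a number marks a shared experiment, and the ratios within experiments above take it to do so. With the replicate number as a block, 6, 9 and 13 members were called in CPEB1 IP against IgG, CPEB1 IP against input and IgG against input, beside 6, 9 and 14 without it. With each library left out, 2 to 5 members were called against IgG, 6 to 11 in CPEB1 IP against input and 7 to 10 in IgG against input, the lone library of a group then being assumed to vary like the other group. The ranges were 6 to 19, 14 to 20 and 16 to 24 for the other muscle fibre genes (21, 21 and 28 with all libraries), 6 to 8, 2 to 8 and 4 to 6 for the non-sarcomeric actomyosin genes (8, 5 and 5), and 1 to 3 for CPEB1-associated members. DESeq2 called 5 members in CPEB1 IP against input and 7 in IgG against input, and 13, 13 and 14 of the other muscle fibre genes. The FPKM totals as library sizes gave 17 members in CPEB1 IP against IgG and 13 non-sarcomeric actomyosin genes in IgG against input. With no filter, 9 of 38 members were called in IgG against input, 4 higher and 5 lower, beside 4109 higher and 3066 lower of all 40052 genes. The main settings had 10 higher and 4 lower of 28 there, so the balance of directions turned with the filter. With the main settings, 7 were left in IgG against input among members with no shared exon bases (fewer genes tested). Counts over all genes for DESeq2 and the FPKM totals are given above. With TMM FPKM, 0 members were CPEB1-associated. The mean summed level, 2437 (CPEB1 IP), 2304 (IgG) and 3017 (input), was 1698, 906 and 2272 scaled to the FPKM total and 1181, 1110 and 1485 without Des. Apart from the calls named above as lost, the cause of these moves was not tested.

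Among the genes named with values, direction turned for 11 log2 fold changes, of which only Neb against IgG was called (0.038 with the FPKM totals). Between CPEB1 IP and IgG these were Myl4 (0.027 with DESeq2, 0.56 with the FPKM totals, 0.16 with no filter), Tnnt3 (0.22, 0.75, 0.35, 0.0077 in 1 fit of all libraries, and with a library left out -0.25 to 0.12), Mybpc1 (0.25, 0.79, 0.38, 0.038, and with a library left out -0.22 to 0.18) and Tnni2 (-0.27 to 0.43 with a library left out). Between IgG and input they were Myl1 (-0.25), Tnnt3 (-0.28) and Pvalb (-0.26) with the FPKM totals, and Tpm1 (0.024 with RLE and 0.060 with counts on genes as library sizes). With a library left out, Tnnt1 ranged from -0.31 to 0.10, Tpm2 from -0.24 to 0.040 and Tpm1 from -0.15 to 0.10 there.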

Other observations

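The actin and myosin genes of non-muscle and smooth muscle cells (13 genes, all tested) were lower in the precipitates than in input where they were called. In each of CPEB1 IP and IgG the 5 that were called were lower than input, with median log2 fold changes of -0.39 and -0.37 over the 13, while of the sarcomeric members 7 were higher and 2 lower of 25 tested in CPEB1 IP, and 10 higher and 4 lower of 28 in IgG. With the FPKM totals the sarcomeric members had 4 higher and 4 lower of 25 in CPEB1 IP and 2 higher and 8 lower of 25 in IgG. All genes then had 1222 higher and 2753 lower of 12046, and 551 and 7172 of 12008. With no filter the sarcomeric members had 6 higher and 2 lower of 38 in CPEB1 IP, and 4 higher and 5 lower of 38 in IgG. Beside these, all genes had 2135 higher and 1918 lower of 34778, and 4109 and 3066 of 40052. Between CPEB1 IP and IgG, 6 of the 13 actin and myosin genes of non-muscle and smooth muscle cells were higher and 2 lower. Of the sarcomeric members, 3 were higher and 3 lower of 25 tested there, beside 14.7% and 18.7% of all genes tested. At an adjusted p under 0.05, the SC markers fell from input in the precipitates more often than they rose, with 2 of 12 higher and 6 lower in CPEB1 IP and 1 higher and 8 lower in IgG. Beside these lists, 17% of all genes tested were higher and 15.8% lower than input in CPEB1 IP, and 21.4% and 19.4% in IgG. Pax7, the transcription factor of quiescent SCs, was 3.58-fold lower in CPEB1 IP than in input (log2 fold change -1.84, adjusted p = 1.58e-06) in the edgeR test, whereas Myod1, the myogenic determination factor, was 2.48-fold higher (log2 fold change 1.31, adjusted p = 2.02e-05). The IgG control lay on the same side of input for both genes. Pax7 had 329 and 353 CPM in input, 92.7 and 80.8 in IgG and 90.8 and 92.5 in CPEB1 IP. Myod1 had 1062 and 946 CPM in input, 1929 and 1910.5 in IgG and 2540 and 2270 in CPEB1 IP. The difference between the gene lists was not tested.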
